A study of Drosophila melanogaster with 9 samples.

Results

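The *Cpr* genes of *Drosophila melanogaster* were examined as one family, over 9 whole-larva expression arrays. Their members were every gene that a probe set names alone with a symbol of the form *Cpr* followed by a digit. This gave 66 genes, of 11982 genes that had a probe set of their own, and 70 *Cpr* symbols stand in the RefSeq gene table. For the one gene with a second probe set, *Cpr47Ef*, the probe set with the higher mean over the arrays was taken. The arrays came from whole third-instar larvae of the *yw* strain, 3 per group. Pinched larvae had been squeezed with forceps and cleanly injured larvae pricked with a tungsten needle, and both were collected after 4 h. Untreated larvae had neither treatment. All 3 groups carry the *yw* genotype, a name that stands for mutations of *yellow*, a gene of cuticle pigmentation, and *white*, a gene of eye pigment transport. The labels give no time for the untreated larvae. The methods describe water, forceps and a move to apple juice agar for pinching. For pricking with bacteria they describe a cold agar plate and a move to apple juice agar, with no separate account of clean injury. Time, handling and food therefore cannot be told apart from the treatments. The labels call the arrays biological replicates, and no source used here states how many larvae stand behind an array.

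Cpr proteins carry the Rebers and Riddiford sequence, a stretch that binds chitin, and are secreted by the epidermis into the cuticle. Together with chitin fibres they set how stiff or stretchable a piece of cuticle is, and the insect draws on different members for larval, pupal and adult cuticle. Many members stand in clusters on the chromosomes, and each name gives the band of the chromosome map in which its gene lies, so that *Cpr47Ea* to *Cpr47Eg* form the cluster 47E. Epidermal cells make new cuticle in rhythm with pulses of the moulting hormone ecdysone. On these whole-larva arrays the markers of fat body, midgut, muscle, salivary gland and blood cells gave bright signals, while the neuron markers *nSyb* and *futsch* and the tracheal receptor gene *btl* lay below the median of all probe sets. The neuron gene *elav* lay above it.

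Values are log2 signals, as deposited. Each change is a difference of group means on that scale, with its standard error (SE) from limma, a linear model fitted to all 9 arrays and all 18769 probe sets. A gene was called lower or higher where the p-value adjusted for all these probe sets was under 0.05. This main fit leaves out the replicate numbers, and calls with the numbers as a block are given apart and named as such. Signals of different probe sets do not rank the genes by amount of RNA. In whole larvae, fewer cells of a type and less RNA per cell cannot be told apart. The median signal of the 9 arrays lay between 4.94 and 5.08, and arrays of 1 group correlated at 0.988 to 0.995 across probe sets. Where a called gene lost its call when 1 array was left out, the arrays are named beside it.

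More *Cpr* genes were lower than higher upon pinching. Of the 66 genes, 17 were lower and 4 were higher than in untreated larvae, and 45 were not called. Among all probe sets, 4.99% were called lower and 4.21% higher. The median log2 change of the *Cpr* genes was -0.35, against -0.02 over all probe sets. In 56 genes (84.8%) the change lay below 0, which was so for 54.4% of all probe sets. Single changes spread widely, between -2.85 for *Cpr65Aw* and 2.19 for *Cpr47Eb*. The count of lower genes was 10 without untreated 1, untreated 3 or pinching 2, and the count of higher genes was 2 without untreated 1, untreated 3, pinching 1 or pinching 2. Shares over all probe sets in these fits are not given here, so whether such falls in count are particular to the family was not tested. Calls were kept in each of the 9 fits without 1 array by 9 of the lower genes, *Cpr30B*, *Cpr47Ed*, *Cpr49Ah*, *Cpr60D*, *Cpr65Au*, *Cpr65Av*, *Cpr65Aw*, *Cpr78Ca* and *Cpr11A*, and by the higher genes *Cpr47Eb* and *Cpr67B*. Without 1 array, 11 genes not called over the 9 arrays were called lower in at least 1 fit, among them *Cpr31A*, *Cpr64Ad* and *Cpr66D* without untreated 2 (adjusted p 0.0282 to 0.0353), and none was called higher.

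After clean injury 19 genes were lower, 4 were higher and 43 were not called. The shares over all probe sets were 4.93% lower and 5.22% higher. The median log2 change was -0.35, beside -0.04 over all probe sets, and 56 genes (84.8%) lay below 0, beside 55.5% of all probe sets. Changes ran between -2.84 for *Cpr78Cc* and 2.55 for *Cpr47Eb*. This comparison and that of pinching use the same 3 untreated arrays, so they are not independent of each other. The lower count was 12 without untreated 1 and 10 without untreated 3, clean injury 1 or clean injury 2, and the higher count was 1 without untreated 1, clean injury 1 or clean injury 2 and 2 without untreated 2 or untreated 3. Here too the shares over all probe sets in these fits are not given. In all 9 fits without 1 array, 9 lower genes kept their calls, namely *Cpr47Ec*, *Cpr49Ah*, *Cpr60D*, *Cpr65Au*, *Cpr65Aw*, *Cpr78Ca*, *Cpr78Cc*, *Cpr92F* and *Cpr11A*, as did the higher gene *Cpr47Eb*. Without 1 array, 8 further genes were called lower in at least 1 fit and none higher, and *Cpr31A* was called without pinching 2, clean injury 3 or untreated 2 (adjusted p 0.019 to 0.0435).

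**Figure D1:**
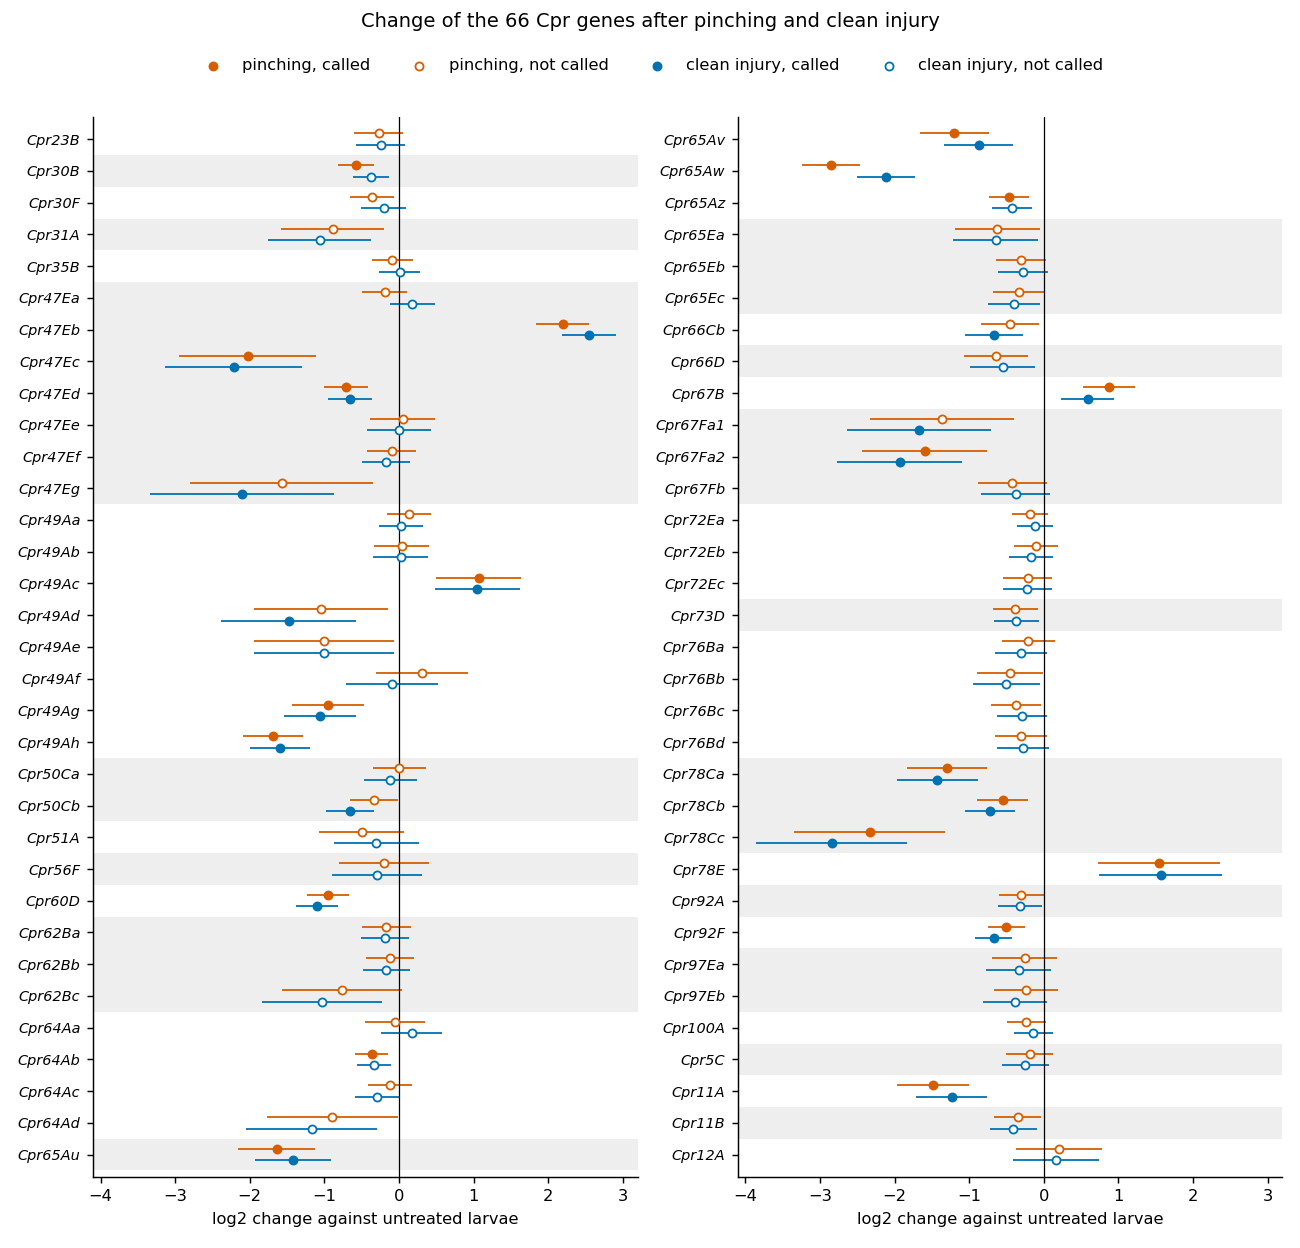
Log2 change of each of the 66 *Cpr* genes against untreated larvae, in chromosomal order with shading by cluster. Orange points stand for pinching and blue points for clean injury, bars give the 95% confidence interval from limma, and filled points were called at an adjusted p under 0.05. Most points lie left of 0, with *Cpr65Aw*, *Cpr78Cc* and *Cpr47Ec* farthest, while *Cpr47Eb*, *Cpr49Ac*, *Cpr67B* and *Cpr78E* lie to the right.

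The names place the 66 genes in 32 clusters, 10 of which held 3 or more measured genes and 42 genes in all. In clusters 65A and 78C every measured gene was lower upon pinching. In cluster 65A, on arm 3L, these were 4 of 4 genes, with a median log2 change of -1.42, and after clean injury 3 of 4, with a median of -1.15. *Cpr65Aw* had signals of 7.31, 7.79 and 7.64 upon pinching, 8.53, 8.29 and 8.15 after clean injury, and 10.17, 10.73 and 10.40 in untreated larvae. The 3 groups did not overlap on any array. *Cpr65Aw* was 7.23-fold lower upon pinching (log2 change -2.85, SE 0.18, adjusted p = 1.04e-05) and 4.32-fold lower after clean injury (log2 change -2.11, SE 0.18, adjusted p = 9.62e-05). *Cpr65Au* stood at 7.41, 7.70 and 7.46 upon pinching, at 8.07, 7.62 and 7.55 after clean injury, and at 8.97, 9.73 and 8.79 in untreated larvae. Every treated array lay below every untreated one, with log2 changes of -1.64 upon pinching (SE 0.23, adjusted p = 0.002) and -1.42 after clean injury (SE 0.23, adjusted p = 0.00422).

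The other genes of cluster 65A changed less. *Cpr65Av* was lower by a log2 change of -1.20 upon pinching (SE 0.21, adjusted p = 0.00607) and of -0.87 after clean injury (SE 0.21, adjusted p = 0.0255). Its clean injury call was lost without clean injury 1, clean injury 2, untreated 2 or untreated 3, with adjusted p between 0.0679 and 0.106. *Cpr65Az*, a dim probe set at 3.44, 3.23 and 3.13 upon pinching, 3.28, 3.31 and 3.35 after clean injury, and 3.91, 3.64 and 3.65 in untreated larvae, had log2 changes of -0.47 upon pinching (adjusted p = 0.0362) and -0.42 after clean injury (adjusted p = 0.0509, and 0.0295 without pinching 1). The pinching call of *Cpr65Az* was kept only without pinching 1 or untreated 2, and ranged over adjusted p of 0.0516 to 0.127 without each of the other 7 arrays. In the RefSeq gene order, 4 larval cuticle protein genes of the *Lcp65A* group lie between *Cpr65Au* and *Cpr65Av*, no coding gene lies between *Cpr65Av* and *Cpr65Aw*, and 10 coding genes lie between *Cpr65Aw* and *Cpr65Az*.

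Cluster 78C, also on arm 3L, had 3 measured genes, and all 3 were lower upon pinching (median log2 change -1.30) and after clean injury (median -1.42). *Cpr78Cc* gave 6.65, 6.91 and 7.91 upon pinching, 5.98, 6.29 and 7.68 after clean injury, and 9.59, 8.93 and 9.95 in untreated larvae. Both treatments lay wholly below the untreated arrays, with replicate 3 nearest to them. The change was 5.04-fold upon pinching (log2 change -2.33, SE 0.45, adjusted p = 0.0108) and 7.16-fold after clean injury (log2 change -2.84, SE 0.45, adjusted p = 0.00396). Without untreated 3 the pinching value of *Cpr78Cc* was -2.10, with an adjusted p of 0.0553. *Cpr78Ca* measured 6.42, 6.49 and 7.14 upon pinching, 6.34, 6.28 and 7.03 after clean injury, and 8.08, 7.70 and 8.15 in untreated larvae. It was 2.45-fold lower upon pinching (log2 change -1.30, SE 0.24, adjusted p = 0.00848) and 2.68-fold lower after clean injury (log2 change -1.42, SE 0.24, adjusted p = 0.00527). *Cpr78Cb*, a dim probe set, had log2 changes of -0.55 upon pinching (adjusted p = 0.04998) and -0.72 after clean injury (adjusted p = 0.0153). Its pinching call lay at the threshold and was lost without any array but pinching 1 or untreated 2 (adjusted p 0.0653 to 0.177), and its clean injury call was lost without clean injury 1, clean injury 2, untreated 1 or untreated 3 (adjusted p 0.0629 to 0.0735). *Cpr78Ca* and *Cpr78Cb* are direct neighbours, and *Edg78E*, an ecdysone-dependent cuticle gene, and *CG43702* lie between *Cpr78Cb* and *Cpr78Cc*.

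In cluster 47E, on arm 2R, neighbouring genes changed in opposite directions. Of 7 genes, 2 were lower and 1 was higher upon pinching, and 3 were lower and 1 was higher after clean injury, with medians of -0.19 and -0.17. *Cpr47Eb* stood at 10.39, 10.59 and 11.06 upon pinching, at 10.90, 11.17 and 11.01 after clean injury, and at 8.46, 8.42 and 8.57 in untreated larvae. The treated arrays lay well above the untreated ones, whose values were close together. It rose 4.57-fold upon pinching (log2 change 2.19, SE 0.16, adjusted p = 4.57e-05) and 5.84-fold after clean injury (log2 change 2.55, SE 0.16, adjusted p = 1.51e-05). *Cpr47Ec*, which is separated from *Cpr47Eb* by *CG13223* alone, gave 10.07, 10.01 and 11.34 upon pinching, 9.80, 9.95 and 11.11 after clean injury, and 12.69, 12.03 and 12.79 in untreated larvae. These values put every treated array below the untreated ones, with replicate 3 of each treatment highest. *Cpr47Ec* was 4.08-fold lower upon pinching (log2 change -2.03, SE 0.41, adjusted p = 0.0133) and 4.65-fold lower after clean injury (log2 change -2.22, SE 0.41, adjusted p = 0.00835). Its pinching call was lost without pinching 2, untreated 1 or untreated 3, at adjusted p of 0.0592 to 0.0645.

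*Cpr47Ed*, the direct neighbour of *Cpr47Ec*, had dim signals of 2.75, 2.76 and 2.74 upon pinching, 2.71, 2.80 and 2.90 after clean injury, and 3.33, 3.28 and 3.75 in untreated larvae. It was called lower in both comparisons, with log2 changes of -0.71 upon pinching (adjusted p = 0.00848) and -0.65 after clean injury (adjusted p = 0.0126), the second call being lost without clean injury 1 or clean injury 2 (adjusted p 0.056 and 0.0565). *Cpr47Eg*, beyond the troponin C gene *TpnC47D*, spread most among its replicates, at 10.94, 10.40 and 12.12 upon pinching, 9.83, 10.41 and 11.64 after clean injury, and 13.33, 11.78 and 13.06 in untreated larvae. Pinching 3 lay above untreated 2, so that the pinching and untreated groups overlapped, while clean injury lay below untreated throughout. The log2 change of *Cpr47Eg* upon pinching was -1.57 (SE 0.55, adjusted p = 0.115, and 0.0488 without pinching 3), and -2.10 after clean injury (SE 0.55, adjusted p = 0.0387). That call was lost without clean injury 1, clean injury 2, untreated 1 or untreated 3, with adjusted p of 0.134 to 0.145. The remaining 3 genes, *Cpr47Ea*, *Cpr47Ee* and *Cpr47Ef*, all with dim probe sets, had log2 changes of -0.19, 0.05 and -0.10 upon pinching and of 0.18, -0.00 and -0.17 after clean injury, and were not called.

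Cluster 49A, on arm 2R as well, was likewise divided. Of 8 genes, 2 were lower and 1 was higher upon pinching, and 3 were lower and 1 was higher after clean injury, with medians of -0.46 and -0.55. *Cpr49Ah* gave 4.77, 4.97 and 5.52 upon pinching, 5.15, 5.14 and 5.25 after clean injury, and 6.80, 6.96 and 6.56 in untreated larvae. It was lower on every treated array, 3.22-fold upon pinching (log2 change -1.69, SE 0.18, adjusted p = 0.000497) and 3.01-fold after clean injury (log2 change -1.59, SE 0.18, adjusted p = 0.000598). *Cpr49Ag* had log2 changes of -0.95 upon pinching (adjusted p = 0.0218) and -1.06 after clean injury (adjusted p = 0.0134). Its calls were lost without untreated 1, untreated 3 or replicate 1 or 2 of the treatment compared, with adjusted p of 0.059 to 0.0906 upon pinching and 0.0527 to 0.0698 after clean injury.

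*Cpr49Ac* was the raised gene of cluster 49A, but its probe set is of a kind that can cross-hybridise. Without such probe sets *Cpr49Ac* had no value, and 3 of the 64 members left were called higher upon pinching. The signals of *Cpr49Ac* were 12.35, 12.16 and 11.46 upon pinching, 12.29, 12.18 and 11.45 after clean injury, and 10.76, 11.01 and 11.00 in untreated larvae. The groups did not overlap, and replicate 3 of each treatment came nearest to the untreated arrays. It rose 2.10-fold upon pinching (log2 change 1.07, SE 0.26, adjusted p = 0.0277) and 2.07-fold after clean injury (log2 change 1.05, SE 0.26, adjusted p = 0.028). Both calls were lost without untreated 1, untreated 2, untreated 3 or replicate 1 or 2 of the treatment compared, at adjusted p between 0.0508 and 0.106 upon pinching and between 0.0505 and 0.123 after clean injury. Next to it lies *Cpr49Ad*, with 6.58, 6.10 and 7.42 upon pinching, 5.89, 5.81 and 7.08 after clean injury, and 8.26, 7.23 and 7.74 in untreated larvae. Pinching 3 exceeded untreated 2 there, and clean injury lay below all untreated arrays. The log2 changes of *Cpr49Ad* were -1.04 upon pinching (SE 0.41, adjusted p = 0.152) and -1.48 after clean injury (SE 0.41, adjusted p = 0.0454), the call being lost without pinching 1, clean injury 1, clean injury 2, untreated 1 or untreated 3 (adjusted p 0.054 to 0.181).

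*Cpr49Af* had the highest mean signal of the family and was not called. It stood at 11.89, 12.01 and 12.76 upon pinching, 11.58, 11.45 and 12.44 after clean injury, and 11.88, 11.77 and 12.09 in untreated larvae, and the groups overlapped (log2 change 0.31 upon pinching and -0.09 after clean injury, SE 0.28). *Cpr49Ae*, which lies between *Cpr49Ad* and *Cpr49Af*, had log2 changes of -1.01 in both comparisons, with adjusted p of 0.181 upon pinching and 0.171 after clean injury. It was called lower upon pinching without pinching 3 (adjusted p = 0.0369) and after clean injury without clean injury 3 (adjusted p = 0.0499). The dim probe sets of *Cpr49Aa* and *Cpr49Ab* had changes of 0.02 to 0.14 and were not called.

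**Figure D2:**
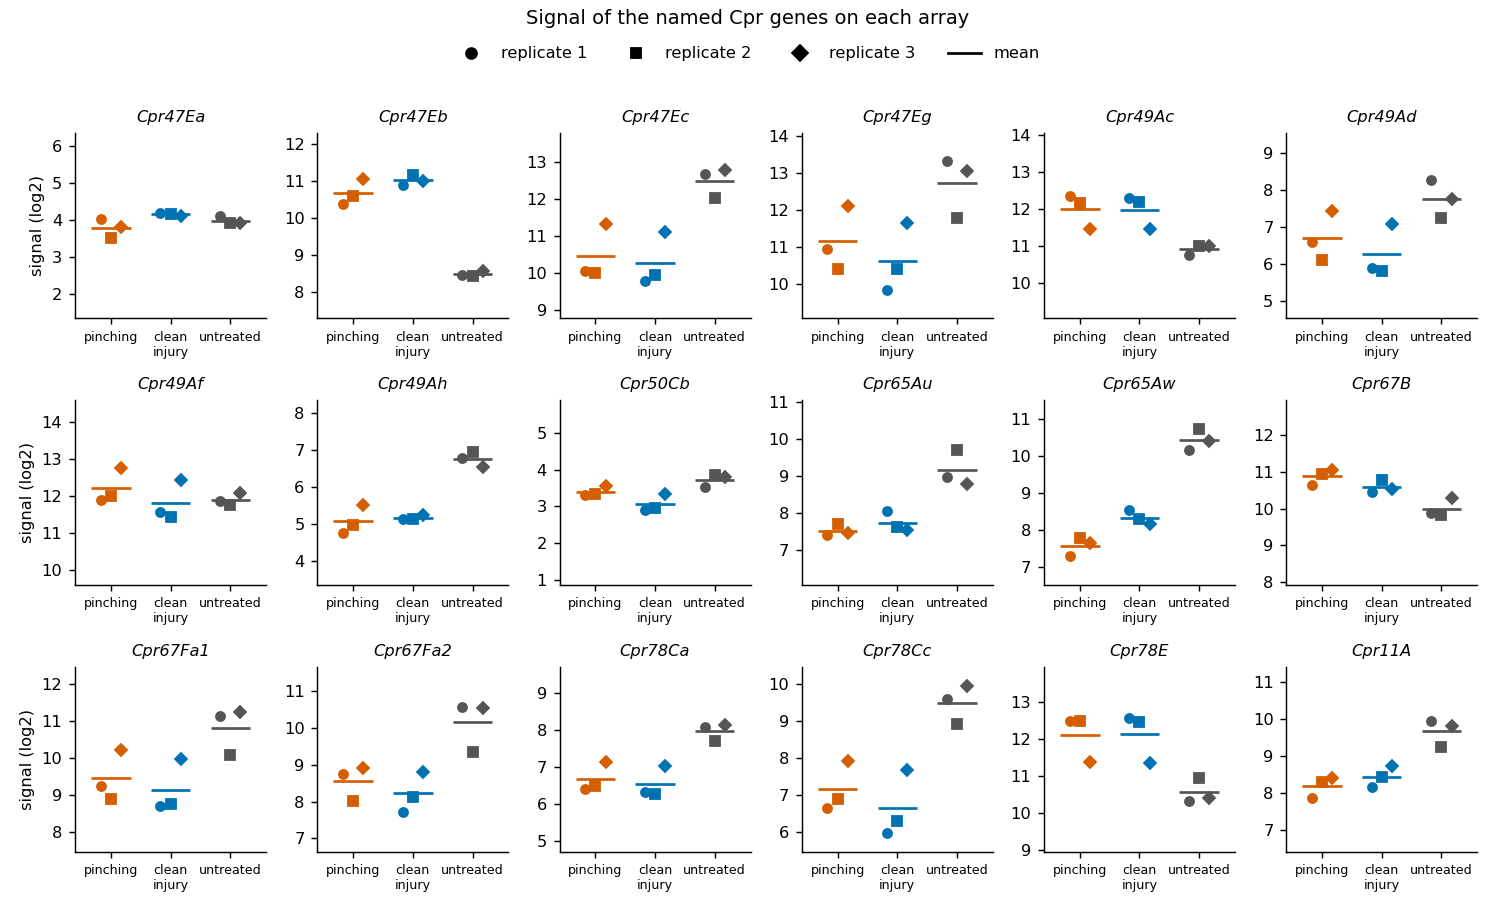
Log2 signal on each array for the 18 genes described array by array, with pinching (orange), clean injury (blue) and untreated larvae (grey) from left to right. Symbols mark the replicate numbers and bars the group means of 3 arrays, and every panel spans the same number of log2 units. *Cpr65Aw* separated all 3 groups, while in *Cpr47Ec*, *Cpr47Eg*, *Cpr78Cc* and *Cpr67Fa1* replicate 3 of both treatments lay above the other treated arrays.

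Cluster 67F held 3 measured genes. *Cpr67Fa1* stood at 9.25, 8.91 and 10.24 upon pinching, 8.71, 8.77 and 9.98 after clean injury, and 11.14, 10.10 and 11.24 in untreated larvae. Pinching 3 overlapped with untreated 2, and clean injury did not overlap. Its log2 change was -1.36 upon pinching (SE 0.43, adjusted p = 0.0839) and -1.67, or 3.19-fold lower, after clean injury (SE 0.43, adjusted p = 0.0357). It was called lower upon pinching without pinching 3, clean injury 3 or untreated 2 (adjusted p 0.0348 to 0.0496). The clean injury call was lost without clean injury 1, clean injury 2, untreated 1 or untreated 3 (adjusted p 0.131 to 0.15). Its neighbour *Cpr67Fa2* gave 8.74, 8.01 and 8.90 upon pinching, 7.72, 8.13 and 8.81 after clean injury, and 10.57, 9.33 and 10.54 in untreated larvae. No treated array reached the untreated ones, and the log2 changes were -1.60 upon pinching (SE 0.38, adjusted p = 0.0261) and -1.93 after clean injury (SE 0.38, adjusted p = 0.0107). *Cpr67Fa2* lost its pinching call without pinching 2, untreated 1 or untreated 3 (adjusted p 0.102 to 0.112) and its clean injury call without untreated 1 or untreated 3 (adjusted p 0.0535 and 0.054). *Cpr67Fa1* and *Cpr67Fa2* are near-identical copies, and another probe set that the annotation gives to both had log2 changes of -1.37 upon pinching and -1.73 after clean injury. How far the signals of these copies are shared was not tested. The dim *Cpr67Fb* was not called, but was lower upon pinching without untreated 2 (log2 change -0.66, adjusted p = 0.0449).

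The other 5 clusters of 3 or more genes held 17 members, of which 1 was called lower upon pinching and none after clean injury. With the replicate number as a block in the fit, 5 of the 17 were lower upon pinching and 4 after clean injury. In 64A, *Cpr64Ab* was lower upon pinching by a log2 change of -0.37 (adjusted p = 0.0492), a call that was lost in every fit without 1 array but the one without pinching 1 (adjusted p 0.0653 to 0.181), and no gene of 64A was called after clean injury. No gene of 62B, 65E, 72E or 76B was called in either comparison without the block. The cluster medians in these 5 lay between -0.34 and -0.17 upon pinching and between -0.40 and -0.17 after clean injury. *Cpr62Bc* had the lowest value among the genes of 62B, 65E, 72E and 76B, with log2 changes of -0.77 upon pinching (adjusted p = 0.236) and -1.03 after clean injury (adjusted p = 0.108). With the block its adjusted p was 0.0302 upon pinching and 0.00669 after clean injury, and without the block but also without clean injury 3 it was 0.0251 after clean injury. *Cpr64Ad* and *Cpr65Ec* were called lower without untreated 2 in both comparisons (adjusted p 0.00836 to 0.0282), *Cpr64Ab* after clean injury without pinching 1 (adjusted p = 0.0498) and *Cpr76Bb* upon pinching without pinching 3 (adjusted p = 0.0488).

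The smaller clusters held 24 members, of which 4 were lower and 2 higher upon pinching and 5 were lower and 2 higher after clean injury. *Cpr11A*, on the X chromosome, stood at 7.87, 8.31 and 8.40 upon pinching, 8.17, 8.45 and 8.73 after clean injury, and 9.97, 9.26 and 9.82 in untreated larvae. It was lower on every treated array, 2.80-fold upon pinching (log2 change -1.49, SE 0.22, adjusted p = 0.00235) and 2.35-fold after clean injury (log2 change -1.23, SE 0.22, adjusted p = 0.0061). *Cpr60D* gave 10.83, 10.64 and 10.87 upon pinching, 10.69, 10.41 and 10.81 after clean injury, and 11.74, 11.65 and 11.80 in untreated larvae, with little spread within any group. Its log2 changes were -0.95 upon pinching (SE 0.13, adjusted p = 0.00148) and -1.10 after clean injury (SE 0.13, adjusted p = 0.000625). *Cpr92F* was lower as well, with log2 changes of -0.50 upon pinching (adjusted p = 0.0191) and -0.67 after clean injury (adjusted p = 0.00441), and the pinching call was lost without pinching 2, pinching 3 or untreated 1 (adjusted p 0.0614 to 0.0775).

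Among the dim probe sets of these smaller clusters, *Cpr30B* was lower upon pinching by a log2 change of -0.57 (SE 0.11, adjusted p = 0.00939) and had -0.38 after clean injury (adjusted p = 0.0552, and 0.0471 and 0.0477 without pinching 1 or clean injury 3). *Cpr50Cb*, at 3.30, 3.33 and 3.54 upon pinching, 2.92, 2.96 and 3.33 after clean injury, and 3.54, 3.85 and 3.80 in untreated larvae, had log2 changes of -0.34 upon pinching and -0.66 after clean injury and was called in the second (adjusted p = 0.0175), but not without clean injury 1, clean injury 2 or untreated 3 (adjusted p 0.0757 to 0.0894). *Cpr66Cb* was called after clean injury as well (log2 change -0.67, adjusted p = 0.0362), and without any of the clean injury or untreated arrays its adjusted p was 0.0506 to 0.123. Among the fits without the replicate block, *Cpr66Cb* was called upon pinching only without pinching 1 (adjusted p = 0.00797), as was *Cpr73D* (adjusted p = 0.0452). With the block *Cpr73D* was called lower upon pinching (adjusted p = 0.0414). *Cpr56F* had overlapping groups, with log2 changes of -0.20 upon pinching and -0.29 after clean injury (SE 0.27), and was not called.

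Alongside *Cpr47Eb* and *Cpr49Ac*, the genes called higher were *Cpr78E* and *Cpr67B*. *Cpr78E* stood at 12.49, 12.49 and 11.38 upon pinching, 12.59, 12.48 and 11.35 after clean injury, and 10.33, 10.96 and 10.43 in untreated larvae. Replicate 3 of each treatment came nearest to untreated 2, and the other treated arrays lay far above all untreated ones. It rose 2.92-fold upon pinching (log2 change 1.55, SE 0.37, adjusted p = 0.0269) and 2.96-fold after clean injury (log2 change 1.57, SE 0.37, adjusted p = 0.0247). Both calls were lost without untreated 1, untreated 3 or replicate 1 or 2 of the treatment compared (adjusted p 0.0767 to 0.105 upon pinching and 0.0937 to 0.111 after clean injury). *Cpr67B* gave 10.63, 10.93 and 11.04 upon pinching, 10.44, 10.78 and 10.53 after clean injury, and 9.87, 9.83 and 10.28 in untreated larvae, so that no treated array reached down to the untreated ones. Its log2 changes were 0.87 upon pinching (SE 0.16, adjusted p = 0.00766) and 0.59 after clean injury (SE 0.16, adjusted p = 0.042). The second call was lost without pinching 2, untreated 1, untreated 2 or any clean injury array (adjusted p 0.0583 to 0.181).

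Calls fell mainly on members with brighter probe sets, as they did over all probe sets. With the median signal of all probe sets, 5.03, as the border, 36 members lay above it and 30 below. Upon pinching, 13 of the brighter members were lower and 4 were higher, and 4 of the dimmer members were lower and none higher. The brighter members had a median log2 change of -0.70, against 0.06 over all probe sets above the border, of which 8.64% were lower and 7.98% higher. Under the border 1.34% of all probe sets were lower and 0.437% higher, against 13.3% of the dimmer members lower. After clean injury 15 brighter members were lower and 4 higher (median -0.77, against 0.10 over all probe sets above the border), and 4 dimmer members (13.3%) were lower. Over all probe sets 8.37% were lower and 9.65% higher above the border, and 1.5% lower and 0.788% higher under it. The dimmer members had medians of -0.24 upon pinching and -0.26 after clean injury. In each comparison the change lay below 0 in 26 of these 30 (86.7%), which held for 65.9% of all probe sets under the border upon pinching and for 72.1% after clean injury. No detection call was used here, so a dim value may hold little but background signal.

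**Figure D3:**
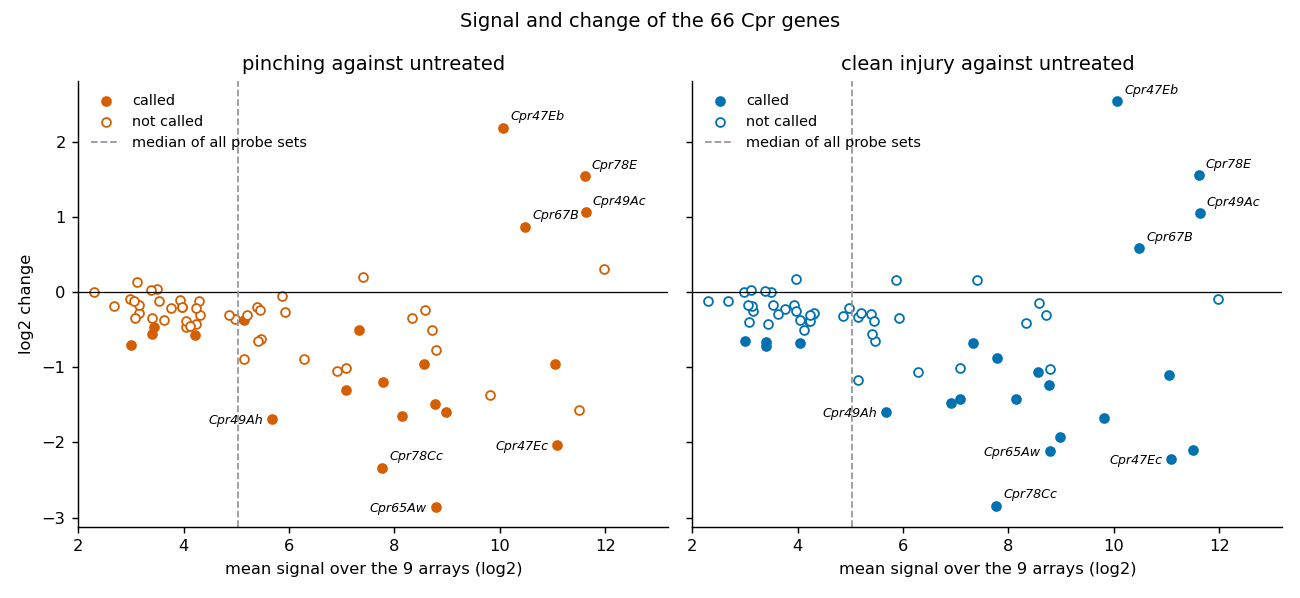
Log2 change of the 66 *Cpr* genes against their mean log2 signal over the 9 arrays, for pinching (left) and clean injury (right), each against untreated larvae. Filled points were called and the dashed line marks 5.03, the median signal of all probe sets. Right of the line the points spread between -2.85 and 2.55, and left of it they stay between -0.72 and 0.18.

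No *Cpr* gene was called between pinching and clean injury. Over all probe sets 0.00533% (1 probe set) was called lower and 0% higher in this comparison. At an unadjusted p under 0.05, 2 of the 66 members were lower and 1 was higher upon pinching. Over all 18769 probe sets, 205 were lower and 107 higher at that threshold. *Cpr65Aw*, given array by array above, had the smallest p of the family, and its pinching arrays lay below all clean injury arrays (log2 change -0.74, SE 0.18, 95% interval -1.13 to -0.35, adjusted p = 0.9999 from limma). *Cpr47Ea*, a dim probe set, followed, with 4.04, 3.52 and 3.81 upon pinching and 4.19, 4.16 and 4.12 after clean injury (log2 change -0.37, SE 0.14, 95% interval -0.67 to -0.07). *Cpr50Cb* was the third (log2 change 0.32, SE 0.14), and its groups overlapped. The median difference over the 66 genes was 0.05. For 56 genes the 95% interval of the difference stayed within 2-fold either way. For the other 10, *Cpr47Ec*, *Cpr47Eg*, *Cpr49Ad*, *Cpr49Af*, *Cpr62Bc*, *Cpr64Ad*, *Cpr65Aw*, *Cpr67Fa1*, *Cpr67Fa2* and *Cpr78Cc*, it reached beyond 2-fold, the widest being that of *Cpr47Eg* (-0.70 to 1.76). All these intervals come from the main fit, which counts variation shared by arrays of equal replicate number as spread. Intervals with the replicate block are not given here. In the main fit the arrays do not show that these 10 genes responded alike.

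Within the groups, arrays of certain replicate numbers often stood apart. In 20 members (30.3%), untreated 2 was the lowest untreated array while pinching 3 and clean injury 3 were the highest of their groups, a pattern found in 8.46% of all probe sets. Among the brighter members it was 17 of 36 (47.2%), against 11.2% of all probe sets above the border. This pattern was not set in advance but taken from the values of these arrays, so its larger share among the members is no test. *Cpr47Ec*, *Cpr47Eg*, *Cpr49Ad*, *Cpr67Fa1*, *Cpr67Fa2*, *Cpr78Ca*, *Cpr78Cc* and *Cpr11A* belong to these 20. The inverse order was seen in 4 members, *Cpr49Ac*, *Cpr78E*, *Cpr64Aa* and *Cpr12A* (6.06%, against 5.06% of all probe sets). Of 6 salivary gland markers, 5 showed the inverse order, among them the glue gene *Sgs3* at 13.39, 13.43 and 12.50 upon pinching, 13.61, 13.46 and 12.96 after clean injury, and 12.77, 13.26 and 12.51 in untreated larvae. Of 4 fat body markers 2 had the inverse order, *Fbp1* and *Lsp2*, and *apolpp* had its highest treated values on pinching 3 and clean injury 3. The values of *Lsp2* lay close together, between 13.85 and 14.03. Of 6 midgut markers 2 and of 7 epidermis and trachea markers 1 had the inverse order, and none of the muscle, blood cell or neuron markers did. The order of the 20 members was seen in 1 muscle and 1 blood cell marker and in no other marker. Most of these markers were bright, and 7.53% of all probe sets above the border had the inverse order. Whether the larvae behind equal numbers shared a day or a stage is not given in the labels, and the part of this in the *Cpr* results was not tested.

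With the replicate number as a block in the fit, more members were called. The calls upon pinching then numbered 28 lower (over all probe sets 8.76%) and 4 higher (7.6%), and after clean injury 29 lower (8.58%) and 4 higher (10.1%). Every member called without the block was called with it. The 11 members called lower upon pinching with the block alone were *Cpr31A*, *Cpr47Eg*, *Cpr49Ad*, *Cpr49Ae*, *Cpr62Bc*, *Cpr64Ad*, *Cpr65Ea*, *Cpr66D*, *Cpr67Fa1*, *Cpr73D* and *Cpr76Bb*. After clean injury the 10 added were *Cpr30B*, *Cpr31A*, *Cpr49Ae*, *Cpr62Bc*, *Cpr64Ad*, *Cpr65Az*, *Cpr65Ea*, *Cpr66D*, *Cpr73D* and *Cpr76Bb*. For *Cpr47Eg* the adjusted p upon pinching was 0.0102 with the block, for *Cpr49Ad* 0.0191 and for *Cpr67Fa1* 0.00136. For *Cpr65Az* after clean injury it was 0.0245, so that with the block all 4 genes of cluster 65A were called lower in each comparison.

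**Figure D4:**
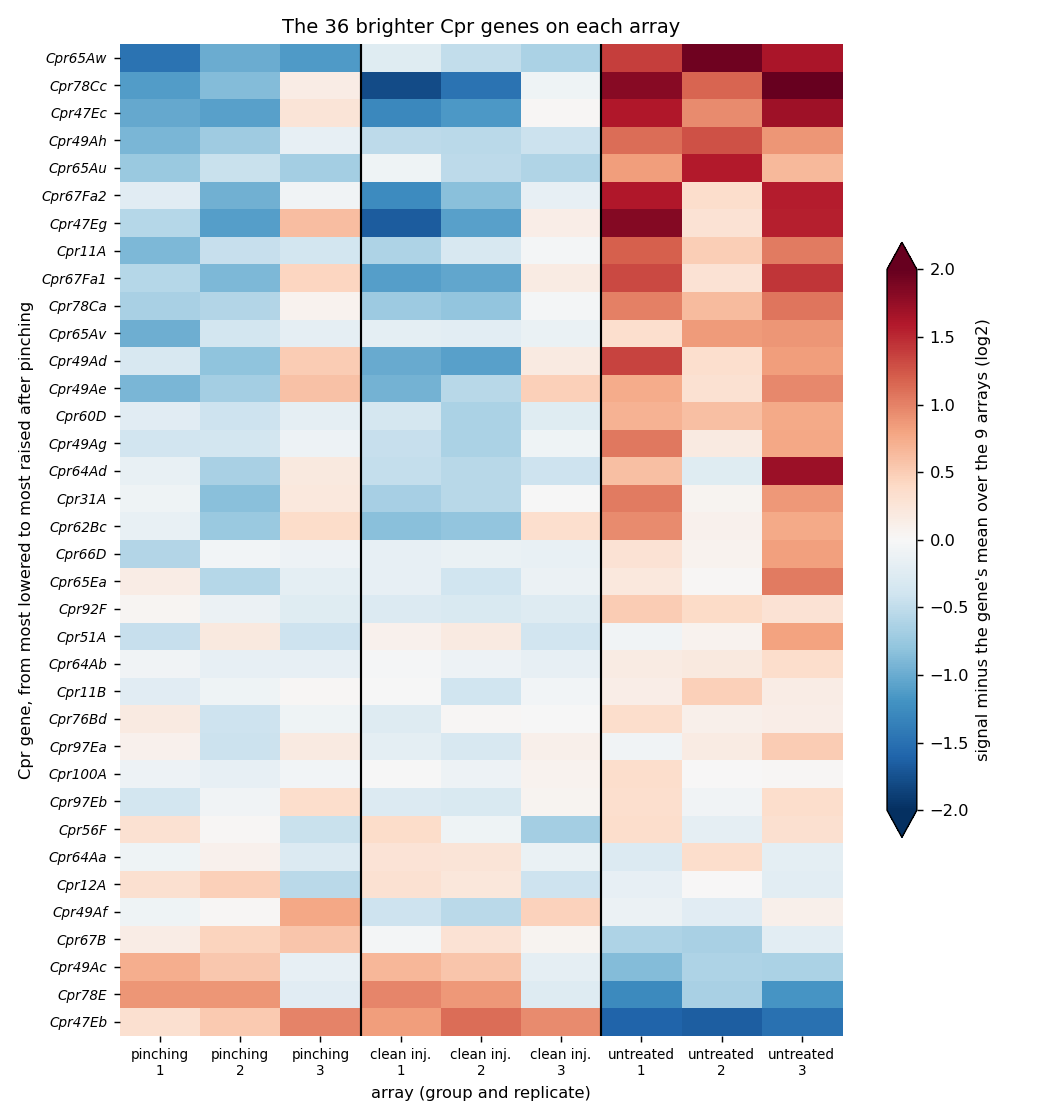
Signal of the 36 brighter *Cpr* genes on each array as the difference from the gene's mean over the 9 arrays (log2, blue below and red above, with colours ending at -2 and 2), for pinching, clean injury and untreated larvae from left to right. Genes run from the most lowered upon pinching (*Cpr65Aw*, log2 change -2.85) at the top to the most raised (*Cpr47Eb*, 2.19) at the bottom. The third column of each treated group is paler than its neighbours in many lowered genes, and so is the second untreated column.

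Several probe sets named with another gene were left out of the members. The one shared by *Cpr65Ax1* and *Cpr65Ax2*, inside cluster 65A, had 11.33, 11.20 and 12.47 upon pinching, 10.63, 11.42 and 12.30 after clean injury, and 13.86, 12.34 and 13.72 in untreated larvae. Its log2 change was -1.64 upon pinching (adjusted p = 0.0737) and -1.86 after clean injury (adjusted p = 0.0434). Of the pair shared by *Cpr57A* and the odorant-binding protein gene *Obp57d*, both were higher, by log2 changes of 1.05 and 1.19 upon pinching and 1.01 and 1.32 after clean injury, and which of the genes they measured is unknown. *Cpr65Ay* had no probe set in the annotation used. The second probe set of *Cpr47Ef* had log2 changes of -0.03 upon pinching and -0.05 after clean injury.

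Other structural proteins of the cuticle showed a similar division of calls. Of 40 measured genes of the Lcp, Tweedle, Edg, Acp and related families, 9 were lower and 1 was higher upon pinching (median log2 change -0.62), and 10 were lower and 1 higher after clean injury (median -0.61). *Lcp65Aa*, which lies between *Cpr65Aw* and *Cpr65Az*, had log2 changes of -1.73 upon pinching (SE 0.18, adjusted p = 0.000393) and -1.74 after clean injury (SE 0.18), and was called lower in both. *Pcp*, which encodes a pupal cuticle protein, was the gene called higher. With the replicate block 19 of these genes were lower upon pinching and 20 after clean injury, and 1 was higher in each. The shares over all probe sets, 4.99% lower and 4.21% higher upon pinching and 4.93% lower and 5.22% higher after clean injury, hold beside all these lists, and with the block those of 7.6% to 10.1%.

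Of 16 measured genes of chitin synthesis and assembly, 6 were lower and 1 was higher in each comparison, the higher one being *Gasp*, a chitin-binding protein gene of the airways. With the block 8 were lower and 1 was higher in each. Among 13 tanning genes 2 were higher and none lower in each comparison, and *yellow-f* was among the raised in both. With the block 3 tanning genes were lower upon pinching and 4 after clean injury, and 2 were higher in each. Of 18 ecdysone response genes 1 was lower in each comparison, *ImpL2* upon pinching and *Cyp18a1* after clean injury, and none was higher. With the block 2 were lower and 1 was higher upon pinching, and 1 was lower and 3 were higher after clean injury.

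Of 7 measured markers of epidermis and trachea, the tissue that makes cuticle, 1 was called, the chitin deacetylase gene *serp*, which is also in the chitin list and was lower in both comparisons. The markers *verm* and *kkv* are in the chitin list too. The median log2 change of the 7 was -0.05 upon pinching and -0.11 after clean injury. Their summed signal on the linear scale was 3297 to 3605 upon pinching, 3530 to 3667 after clean injury and 4096 to 5475 in untreated larvae. That gap lay in *serp* and *verm*, both chitin deacetylase genes, whose sum was 1707 to 2137 upon pinching, 1947 to 2104 after clean injury and 2550 to 4270 in untreated larvae. The other 5 summed to 1390 to 1699 upon pinching, 1563 to 1630 after clean injury and 1206 to 1546 in untreated larvae. This split follows the values of these arrays, so the second sum is no separate measure of the tissue. *grh* and *kkv* had the highest mean signals in it (9.38 and 9.44), beside 4.95 for *shg*, 3.89 for *btl* and 6.65 for *vvl*. The epidermal transcription factor gene *grh* stood at 9.33, 9.58 and 9.27 upon pinching, 9.53, 9.47 and 9.36 after clean injury, and 9.07, 9.49 and 9.34 in untreated larvae, and these groups overlapped. The chitin synthase gene *kkv* had log2 changes of 0.24 upon pinching and 0.22 after clean injury and was not called. The part of the epidermal share in the *Cpr* results was not tested.

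Of the other marker lists, muscle had 1 gene lower in each comparison, blood cells 2 lower and 1 higher and midgut 1 higher after clean injury and none upon pinching, and no marker of fat body, neurons or salivary gland was called. With the replicate block more markers were called. Upon pinching 2 epidermis and trachea, 1 fat body and 1 muscle marker were then lower, and 1 each of midgut, blood cells and salivary gland was higher. After clean injury 2 epidermis and trachea, 1 fat body, 3 muscle and 4 blood cell markers were lower, and 1 fat body, 1 midgut, 2 blood cell and 3 salivary gland markers were higher. The summed blood cell markers lay at 4175 to 5059 upon pinching, 3765 to 4429 after clean injury and 5036 to 5803 in untreated larvae. In the sum, this difference lay in the crystal cell genes *PPO1* and *PPO2*, whose sum was 2457 to 3423 upon pinching, 1931 to 2744 after clean injury and 3460 to 4171 in untreated larvae. *PPO1* was called lower after clean injury (log2 change -0.68, adjusted p = 0.042 from limma) but not upon pinching, and *PPO2* was not called in either comparison. The other 6 summed to 1441 to 1743 upon pinching, 1686 to 1834 after clean injury and 1557 to 1632 in untreated larvae. This split also follows the values of these arrays, so the sum of the 6 is no separate measure of blood cells. Within that sum, single genes moved in opposite directions. After clean injury the log2 changes were -0.64 for *Pxn*, -0.38 for *Hml* and -0.12 for *eater*. They were 0.99 for *He*, 0.62 for *srp* and 0.28 for *NimC1*. Of these, *Pxn* was called lower and *He* higher. The part of the blood cell markers in the *Cpr* results was not tested either.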

How the data were processed

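Total RNA from whole *yw* third-instar larvae was labelled as cRNA and hybridised to Affymetrix *Drosophila* Genome 2.0 arrays. The values deposited by the authors are log2 signals, 1 per probe set and array. Beyond the use of R, no source used here says how they were background-corrected, normalised and summarised, so that a shift common to all probe sets could have been removed. The table held 18952 probe sets, and 183 control probe sets were left out. GEO's platform annotation gives 13647 probe sets 1 symbol, 402 several and 4720 none, and it can be old. Gene order and chromosome arms came from the RefSeq gene table, to which all 66 symbols matched. No sequences are shown.

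Groups were taken from the sample titles. The 9 arrays were fitted with 1 mean per group in limma 3.58.1 (R 4.3.3), with two-sided moderated tests. P-values were adjusted by the Benjamini-Hochberg method over 18769 probe sets, and the script was tested on simulated data. Having 3 arrays per group limits the precision. The p-values set a difference of group means against the spread between these arrays, which limma moderates over all probe sets. Genes described array by array were, in each comparison with untreated larvae, up to 8 called members with the largest falls and up to 8 with the largest rises, the 3 members with the highest mean signal, and the 3 with the smallest p between the treatments. Other members given with array values were chosen after their values were seen. The members and all gene lists were chosen with earlier results of these data known. Samples of equal replicate number deviated together in all 9 pairs of groups and numbers (correlation of deviations from the group means 0.189 to 0.548, against -0.463 to 0.160 for unequal numbers). In the replicate block alone, the numbers were therefore taken to pair the samples, an inference from the data and not from the labels. The main fit treats the arrays as unpaired, so its SEs, intervals and adjusted p-values include variation shared by equal numbers. A member not called there can be called with the block. Python 3.11.15 with pandas 2.3.3 served for the summaries, and matplotlib 3.10.9 for the figures. The alternatives were quantile normalisation, centring on the median, leaving out the dimmest 40% or the probe sets that can cross-hybridise, the mean over probe sets of a gene, fits of the 6 arrays compared, a robust prior with an intensity trend, a minimum of 2-fold, the methods' t-test, the replicate block and leaving out each array.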

Additional observations from a re-analysis of the deposited data

How the results depend on the processing

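Counts of *Cpr* genes depended on the model more than on the scaling. With the replicate block, 28 genes were lower upon pinching and 29 after clean injury. With the methods' t-test, 18 were lower and 4 higher upon pinching and 24 lower and 4 higher after clean injury before adjustment, and after Benjamini-Hochberg adjustment 1 was lower and 0 higher upon pinching and 1 lower and 1 higher after clean injury. With a minimum of 2-fold, 9 were lower and 3 higher upon pinching, and 13 were lower and 3 higher after clean injury. Over all 18769 probe sets, 271 were then lower and 217 higher upon pinching, and 288 lower and 276 higher after clean injury. Leaving out each array in turn gave 10 to 22 lower and 2 to 4 higher genes upon pinching, and 10 to 22 lower and 1 to 4 higher genes after clean injury. The shares over all probe sets are not given here for these fits or for the t-test. The 10 lower genes were counted without untreated 1, untreated 3 or pinching 2 upon pinching, and without untreated 3, clean injury 1 or clean injury 2 after clean injury. The 2 higher genes upon pinching were counted without untreated 1, untreated 3, pinching 1 or pinching 2, and the 1 after clean injury without untreated 1, clean injury 1 or clean injury 2. The other alternatives kept every count within 1.5 times, and the median change stayed below 0 in each. Under them no named gene changed sign while called. Between pinching and clean injury 0 genes were called under each alternative that gave a value, among them the methods' t-test and the replicate block. At an unadjusted p under 0.05, limma gave 2 lower and 1 higher there. Of 642 values of named genes under the alternatives, 559 kept their side of the threshold, 76 lost a call and 7 gained one.

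The table holds no measure of background, so changes of dim members have no bound here, and the normalisation by the authors is unknown. With 3 arrays per group, and no untreated larvae at a stated 4 h, neither small changes nor time can be resolved.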
